A study of Mus musculus with 6 samples.

Results

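The G1 cyclins and the inhibitors of their kinases were described here as a set of 10 genes, taken by symbol from a table of 53735 genes: the D cyclins Ccnd1, Ccnd2 and Ccnd3, the E cyclins Ccne1 and Ccne2, the kinase gene Cdk6, the CIP/KIP inhibitors Cdkn1a and Cdkn1b, and the INK4 inhibitors Cdkn2c and Cdkn2d. All 10 were in the table, and all 10 passed the filter on low values (an average of 10 normalized counts or more across the 6 libraries), which left 14298 genes. Transcripts were measured by RNA sequencing in leukemia stem cells, the cells of a leukemia that can regrow it, with 3 bone marrow and 3 liver libraries. The mice of both tissues are given as male, untreated animals of strain C57, 13 days after they received leukemia cells by transplantation. The sources used here do not give the driver of the leukemia, the surface markers used to isolate the cells or any pooling of mice. Technical replicates is the labels' term for the 3 libraries from each tissue, so p-values measure the spread between these libraries only.

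D cyclins are made in response to growth signals and activate CDK4 and CDK6, which begin to phosphorylate the retinoblastoma protein. E2F transcription factors are then released, E cyclins accumulate and activate CDK2, and the cell enters S phase. INK4 proteins block CDK4 and CDK6, while CIP/KIP proteins bind a wider range of cyclin and kinase complexes. In blood-forming cells, CDK6 and the cyclins D2 and D3 are the forms best known for driving this step.

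The bone marrow libraries held 15.4 to 18.5 M reads and the liver libraries 9.73 to 13.8 M, and 1 read was worth 0.744 to 1.42 normalized counts. The X-inactivation transcript Xist stood at 4860 and 6229 normalized counts in replicate 1 of bone marrow and liver. It stood at 4.28 and 1.42 in replicate 2, and at 2486 and 2425 in replicate 3. The Y-linked transcript Ddx3y stood at 43.1 and 0, at 994 and 940, and at 545 and 597 in the same order. The Y-linked Kdm5d, Uty and Eif2s3y were likewise lowest in replicate 1 and highest in replicate 2 of both tissues. Every library is nonetheless labelled male. Libraries of a tissue that differ this far in Xist and the Y-linked genes are also not repeats of a single sample, although the labels call them technical replicates. The 9 stem and progenitor markers, Kit, Hoxa9 and Gata2 among them, were all present and had a summed level of 30139 to 30706 normalized counts for bone marrow and 24765 to 28546 for liver. Of 10 hepatocyte genes 6 (Alb, Ttr, Fgb, Fga, Serpina1a and Cps1) were at 0 in all 6 libraries, and the list's sum of 2674 to 5697 in bone marrow and 2310 to 3064 in liver was nearly all Apoa1. Of 8 Kupffer cell genes 3 were at 0 in all 6 (Clec4f, Vsig4 and Cd5l), and the list summed to 11.9 to 23.3 in bone marrow and 1.20 to 17.8 in liver. Of 10 T and NK cell genes 3 were at 0 in all 6, Cd3e among them, and the sum of 10567 to 11399 and 11568 to 11978 was nearly all Nkg7. The summed level of 10 neutrophil markers was 79.9 to 122 for bone marrow and 177 to 880 for liver, and that of 9 erythroid markers 7896 to 9243 and 5408 to 5657. Of the neutrophil markers 1 was called, Cxcr2, which rose from a mean of 9.08 to 77.3 (limma adjusted p = 0.018). Of the erythroid markers 0 were called. The 9 mast cell and basophil markers summed to 13729 to 18572 and 8249 to 14944, with calls in both directions: Prss34 rose from a mean of 207 to 2546 (adjusted p = 0.016) and Tpsb2 fell from 120 to 0.401 (adjusted p = 0.0091). The 6 eosinophil markers summed to 2333 to 2565 and 1276 to 1413, nearly all Siglecf, which fell (2409 to 1155, adjusted p = 0.0019), while Epx rose from 0 reads in bone marrow to a mean of 58.2 in liver (adjusted p = 0.027). The part of these cells, and of the replicate difference in Xist and the Y-linked genes, in the results was not tested.

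Between liver and bone marrow, none of the 10 genes passed the limma test at an adjusted p under 0.05, a level that 1.01% of all genes tested reached. At an unadjusted p under 0.05 there were 4 of the 10, against 15.7% of all genes. edgeR and DESeq2 on the recovered reads also called 0 of the 10, each with 4 at an unadjusted p under 0.05. In 5 of the 10 the tissues did not overlap, against 22.3% of all genes. Ccnd3, Ccne1, Ccne2 and Cdkn2d lay higher in every liver library, as did 11.4% of all genes, and Ccnd2 lay lower, as did 10.9%. The median log2 fold change was -0.03 over the 10 genes and -0.01 over all genes tested. In bulk samples, fewer cells that carry a transcript and less of it per cell cannot be told apart.

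**Figure D1:**
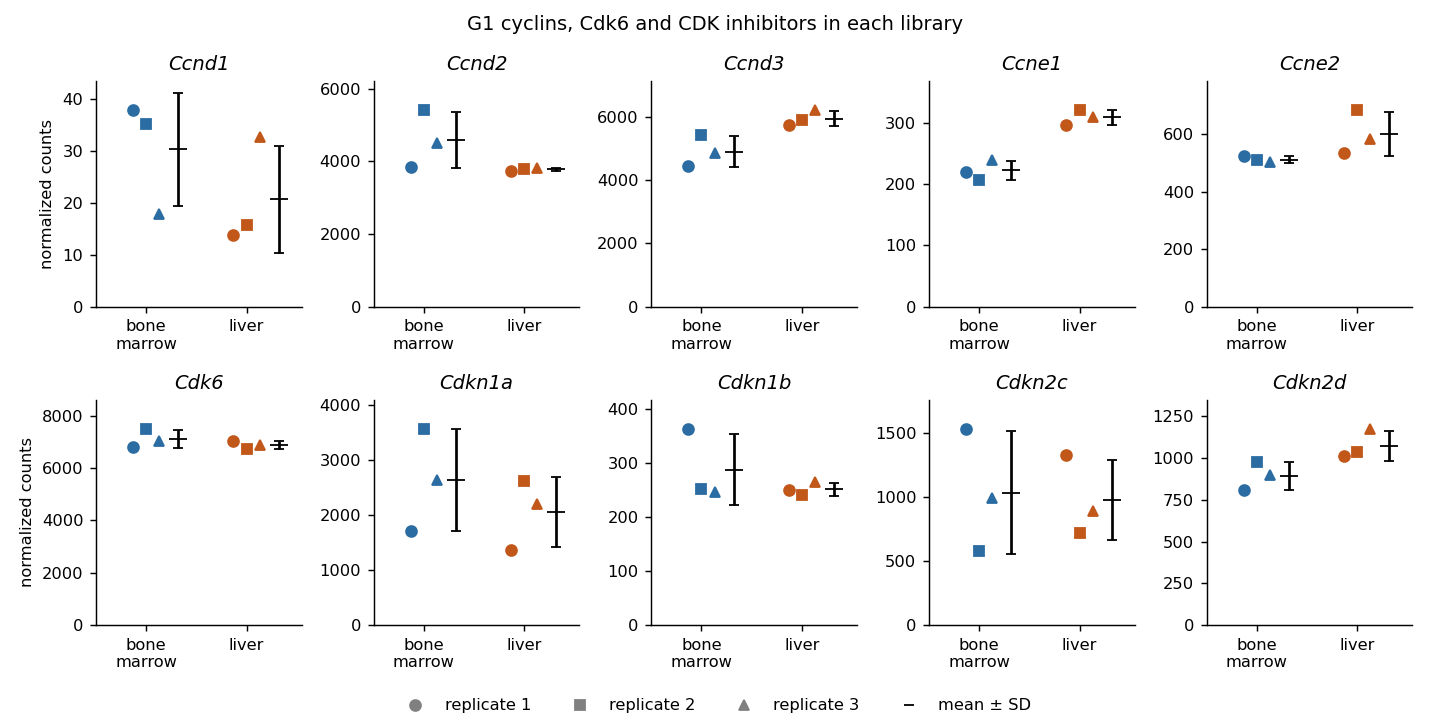
Normalized counts of each gene (vertical axes, starting at 0) in the 3 bone marrow (blue) and 3 liver (orange) libraries, with the replicate number as the marker shape and the mean ± SD in black. The liver points of Ccne1 (297 to 321) all lie above its bone marrow points (208 to 240), while Cdkn1a and Cdkn2c spread widely within each tissue.

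Both E cyclins lay higher in every liver library. Ccne1, the cyclin that opens S phase with CDK2, stood at 221, 208 and 240 normalized counts in bone marrow replicates 1, 2 and 3 and at 297, 321 and 311 in liver. Its lowest liver library was well above its highest from bone marrow. The means were 223 ± 16.2 and 310 ± 11.9 (SD, n = 3 each), so that liver held 139% of the bone marrow level. The log2 fold change was 0.47 ± 0.11 (SE), with a 95% interval of 0.21 to 0.74 and a limma adjusted p of 0.11. Ccne2, its close relative, stood at 524, 509 and 501 in bone marrow and at 535, 682 and 583 in liver. These tissues did not overlap either, but liver replicate 1 lay only just above bone marrow replicate 1. The log2 fold change of Ccne2 was 0.22 with an interval of -0.03 to 0.47 (adjusted p = 0.38), and 0.13 without liver replicate 2. Of the bases in its exons, 17.4% are shared with Ints8 on the other strand, and the library chemistry does not mark the strand.

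The gene Ccne1 spans bases 38097984 to 38107534 of chromosome 7 (GRCm38, minus strand), and its RefSeq promoter window is shown because this gene had the smallest p of the set. The window covers 250 bases before and 50 after the start of transcription, in the direction of the gene. Capitals mark the GC box GGGCGG on either strand, the letters bound by SP1-type factors. E2F factors are textbook activators of Ccne1. None of the letters TTTCCCGC, TTTCGCGC, TTTGCCGC and TTTGGCGC, searched on both strands as E2F motifs, occurs in this window.
Ccne1, chr7:38107441-38107740, minus strand: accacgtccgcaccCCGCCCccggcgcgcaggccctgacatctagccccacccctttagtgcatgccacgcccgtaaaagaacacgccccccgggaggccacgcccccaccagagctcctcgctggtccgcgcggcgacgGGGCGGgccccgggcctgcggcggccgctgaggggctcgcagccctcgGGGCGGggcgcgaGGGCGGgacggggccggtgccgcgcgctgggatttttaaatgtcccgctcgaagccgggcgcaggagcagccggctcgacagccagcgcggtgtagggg
Windows were found in the RefSeq table (GRCm38.p6) for 7 of the 10 genes, 10 windows in all. The GC box occurred in 7 of these 10 windows and in 35.7% of all 32851 windows of that length, and the E2F letters in 0 of 10 and in 2.26%.

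The fold changes of the D cyclins had different signs. Ccnd3 stood at 4436, 5438 and 4858 normalized counts in bone marrow replicates 1, 2 and 3 and at 5744, 5897 and 6212 in liver. Every liver library held more than any bone marrow library, with means of 5951 ± 239 and 4911 ± 503 (SD, n = 3 each), and liver held 121% of the bone marrow level. This is a log2 fold change of 0.28 ± 0.079 (SE), with a 95% interval of 0.10 to 0.47 (adjusted p = 0.15). Ccnd2 stood at 3847, 5396 and 4510 in bone marrow and at 3723, 3788 and 3809 in liver. Its liver libraries lay close together and below all from bone marrow, with bone marrow replicate 1 the nearest to them. The means were 4585 ± 777.2 and 3773 ± 44.9, and the log2 fold change was -0.27 with an interval of -0.53 to -0.005 (adjusted p = 0.31). Without bone marrow replicate 2, the highest library, it was -0.14.

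Ccnd1, the D cyclin of many epithelial tissues, had the lowest level of the set. It stood at 37.7, 35.1 and 17.8 normalized counts in bone marrow and at 13.8, 15.6 and 32.5 in liver, with replicate 3 the lowest in bone marrow and the highest in liver. The tissues overlapped, and the values rest on 107 reads in bone marrow and 52 in liver. For Ccnd1 the log2 fold change was -0.56 with an interval of -1.63 to 0.52 (adjusted p = 0.62), too wide to tell a fall from a rise at this depth. It was -0.33 without liver replicate 1, -0.92 without liver replicate 3 and -1.25 without both replicate 3 libraries. Of its exon bases 23.4% are shared with a gene on the other strand, LTO1.

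Ccnd3 has several starts on chromosome 17 (47505051 to 47599691, plus strand), and the window of the downstream RefSeq start is shown because this gene had the second smallest p of the set. Capitals again mark the GC box on either strand.
Ccnd3, chr17:47593217-47593516, plus strand: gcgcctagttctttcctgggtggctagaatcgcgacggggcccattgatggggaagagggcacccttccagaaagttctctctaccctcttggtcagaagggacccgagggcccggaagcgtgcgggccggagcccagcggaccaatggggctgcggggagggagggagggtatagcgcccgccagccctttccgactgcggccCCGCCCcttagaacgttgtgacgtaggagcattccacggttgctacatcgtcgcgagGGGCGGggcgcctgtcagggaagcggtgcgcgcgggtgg
This window holds 2 GC boxes where that of Ccne1 holds 4, and neither window holds the E2F letters. A match or its absence describes these letters only.

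The make-up of the D cyclins was set out per length, since longer transcripts collect more reads. In normalized counts per kilobase of merged exons, Ccnd3 made up 54.8%, 51.6% and 53.4% of the summed D cyclin level in bone marrow replicates 1, 2 and 3. In liver it made up 62.2%, 62.3% and 63.2%. The liver share thus lay above the bone marrow share in every library, with means of 62.6% ± 0.577 and 53.3% ± 1.6 (SD, n = 3 each). Ccnd2 made up nearly all the rest, 37.0% in liver and 46.1% in bone marrow, and Ccnd1 at most 0.868% of any library. The summed level itself overlapped between tissues, at 922 to 1201 per kilobase in the bone marrow libraries and 1053 to 1120 in those from liver. The ratio of Ccnd3 to Ccnd2 was 1.08 to 1.24 in bone marrow and 1.65 to 1.75 in liver. With the longest annotated transcript as the length, Ccnd3 made up 63.6% in bone marrow and 71.9% in liver, so that its share depends on the length chosen while the order of the tissues was as before. These shares are a description of the chosen genes, with no test.

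**Figure D2:**
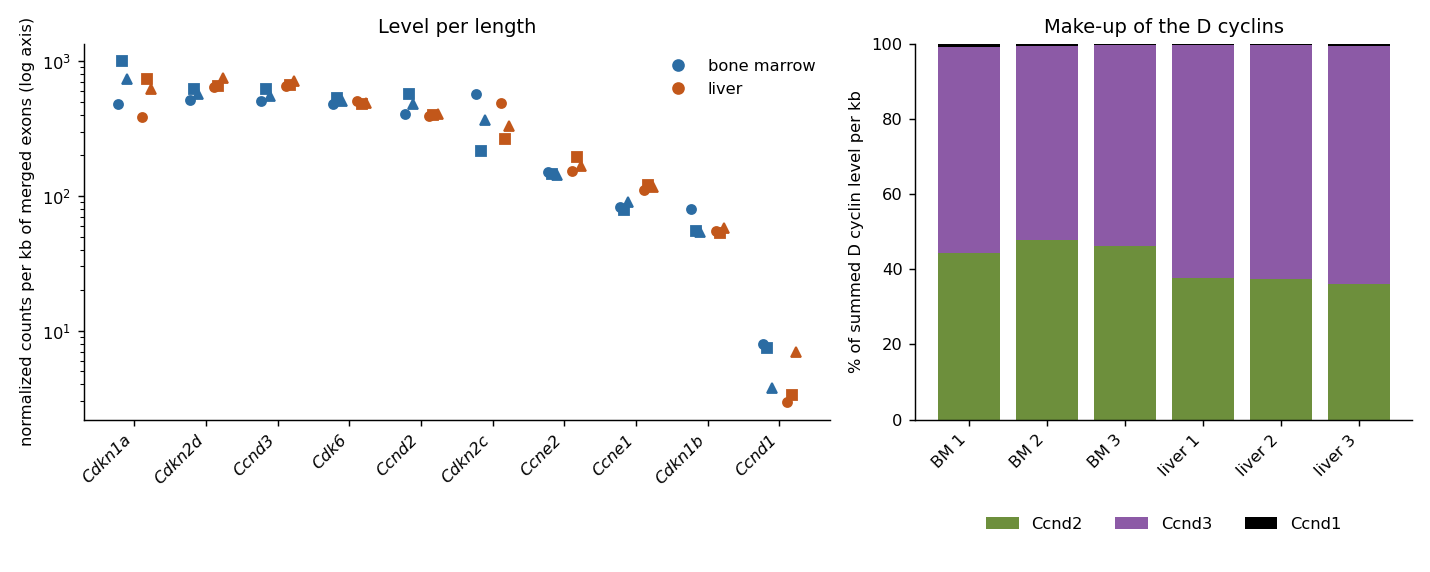
Left, normalized counts per kilobase of merged exons (log axis) of each gene in bone marrow (blue) and liver (orange), with marker shapes for replicates 1 (circle), 2 (square) and 3 (triangle). Right, the share of each D cyclin in their summed level per kilobase in each library (BM, bone marrow), where Ccnd3 takes 51.6% to 54.8% in bone marrow and 62.2% to 63.2% in liver.

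Cdk6, the kinase that D cyclins activate in blood-forming cells, had the narrowest interval of the set. It stood at 6781, 7488 and 7037 normalized counts in bone marrow and at 7038, 6732 and 6872 in liver. The tissues overlapped, and the liver mean was 96.9% of the bone marrow mean. The log2 fold change was -0.04, with a 95% interval of -0.17 to 0.08 (adjusted p = 0.74). Cdk4, the gene of the other kinase that D cyclins activate, was measured among the other pathway genes, at means of 6592 in bone marrow and 6899 in liver. These counts are not per length, so the levels of Cdk4 and Cdk6 cannot be compared from them.

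Among the CIP/KIP inhibitors, Cdkn1a varied more between libraries of a tissue than between tissues. Cdkn1a encodes p21, the inhibitor through which p53 halts the cycle. It stood at 1702, 3566 and 2632 normalized counts in bone marrow replicates 1, 2 and 3 and at 1364, 2618 and 2195 in liver. In both tissues replicate 1 was the lowest and replicate 2 the highest, with a ratio of 2.10 between them in bone marrow and 1.92 in liver. Liver replicates 1, 2 and 3 held 80.2%, 73.4% and 83.4% of the bone marrow library of the same number. The numbers were not taken to pair the samples. The means were 2634 ± 932 and 2059 ± 638 (SD, n = 3 each), and the tissues overlapped. The log2 fold change was -0.34 with an interval of -1.07 to 0.38 (adjusted p = 0.66). It was -0.62 without bone marrow replicate 1 and -0.07 without liver replicate 1. Replicate 1 is also the pair of libraries highest in Xist, and the part of that difference was not tested.

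The gene Cdkn1a spans bases 29090976 to 29100727 of chromosome 17, plus strand. The window of its upstream RefSeq start is shown because p53 is the best known activator of this gene. Capitals mark matches to the p53 half-site consensus on either strand.
Cdkn1a, chr17:29090729-29091028, plus strand: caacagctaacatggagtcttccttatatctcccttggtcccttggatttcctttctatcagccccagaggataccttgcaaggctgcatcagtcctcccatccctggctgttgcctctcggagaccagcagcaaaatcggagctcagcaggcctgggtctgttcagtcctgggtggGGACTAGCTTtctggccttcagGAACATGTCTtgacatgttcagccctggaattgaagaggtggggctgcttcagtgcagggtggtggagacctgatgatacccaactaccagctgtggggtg
This window holds 2 half-sites, at bases 178 and 200 of the window, and the window of the downstream start holds 0. Of all windows of this length 8.36% hold at least 1, and of the 10 windows of these genes 2 do, the other being that of Cdkn2d. A match is no evidence that p53 was bound in these cells.

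Cdkn1b encodes p27, an inhibitor that accumulates in resting cells. It stood at 364, 252 and 248 normalized counts in bone marrow and at 250, 240 and 265 in liver. Bone marrow replicate 1 stood apart, and the other 5 libraries lay between 240 and 265. The log2 fold change was -0.17 with an interval of -0.56 to 0.23 (adjusted p = 0.69), and 0.01 without bone marrow replicate 1.

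Of the INK4 inhibitors, Cdkn2d, which encodes p19, stood at 807, 974 and 898 normalized counts in bone marrow replicates 1, 2 and 3 and at 1010, 1035 and 1174 in liver. No bone marrow library reached the lowest liver library, and liver held 120% of the bone marrow level. The means were 893 ± 83.3 and 1073 ± 88.5 (SD, n = 3 each), with a log2 fold change of 0.27 and an interval of 0.04 to 0.49 (adjusted p = 0.26). Cdkn2c, which encodes p18, stood at 1528, 576 and 992 in bone marrow and at 1324, 714 and 885 in liver. Replicate 1 was the highest and replicate 2 the lowest in both tissues, the opposite of Cdkn1a, with a ratio of 2.65 in bone marrow and 1.86 in liver. The tissues overlapped, and the log2 fold change was -0.02 with an interval of -0.86 to 0.82 (adjusted p = 0.99). A difference of nearly 1 log2 unit in either direction was therefore within the interval for Cdkn2c.

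**Figure D3:**
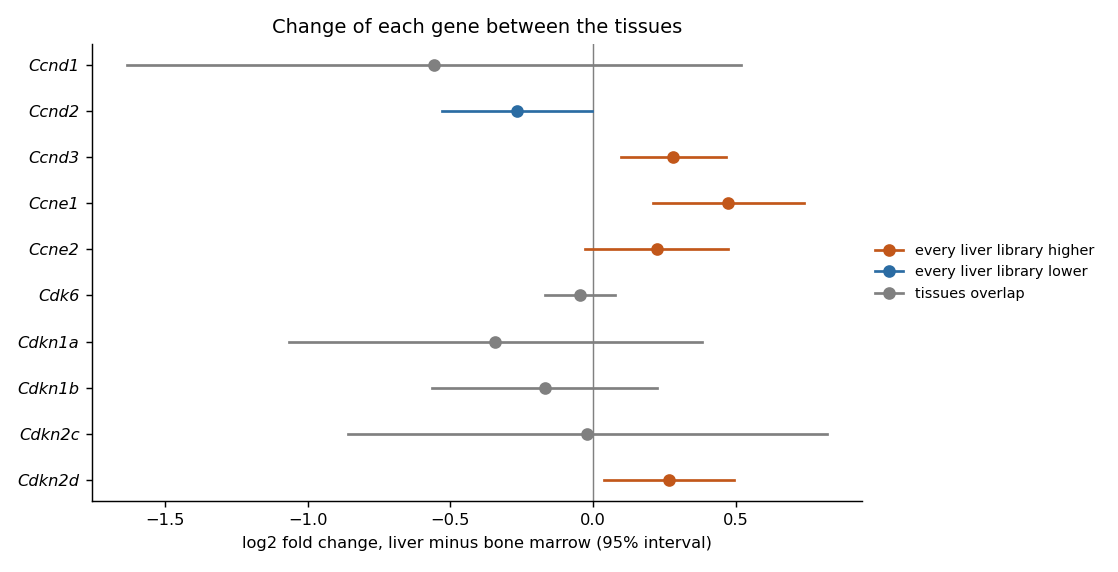
Log2 fold change, liver minus bone marrow (horizontal axis), of each gene with its 95% interval from limma, coloured by whether the libraries of the tissues overlap. Ccne1 (0.47), Ccnd3 (0.28) and Cdkn2d (0.27) have intervals above 0 before adjustment over all genes, and Ccnd2 (-0.27) has one just below it.

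Per length of merged exons, 6 genes lay well above the other 4 in both tissues. In bone marrow Cdkn1a led with 741 ± 262 normalized counts per kilobase (SD, n = 3), followed by Cdkn2d (567 ± 52.95), Ccnd3 (560 ± 57.3), Cdk6 (508 ± 25.6), Ccnd2 (487 ± 82.6) and Cdkn2c (384 ± 178). Each of these 6 overlapped with its neighbours in the order. Then came Ccne2 (146 ± 3.38), Ccne1 (83.8 ± 6.07), Cdkn1b (63.2 ± 14.5) and Ccnd1 (6.42 ± 2.29), of which Ccne1 and Cdkn1b overlapped. In liver Cdkn2d (682 ± 56.3) and Ccnd3 (678 ± 27.2) led, ahead of Cdkn1a (580 ± 180), Cdk6 (492 ± 10.98), Ccnd2 (401 ± 4.77) and Cdkn2c (363 ± 117). Cdk6 and Ccnd2 did not overlap there, while Cdkn2d with Ccnd3, Cdkn1a with both of its neighbours, and Cdkn2c with Ccnd2 did. Ccne2 (172 ± 21.6), Ccne1 (116 ± 4.49), Cdkn1b (55.3 ± 2.73) and Ccnd1 (4.39 ± 2.2) closed the order without overlap. The order among the leading 6 depends on the length chosen. With the longest annotated transcript, Ccnd3 led in bone marrow (1273 per kilobase), followed by Cdkn1a (1266), Ccnd2 (724) and Cdkn2d (628), and in liver Ccnd3 (1543) was followed by Cdkn1a (990) and Cdkn2d (754). The last 4 places were the same with either length.

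The change of each gene was recomputed with 1 library left out at a time. Ccne1 ran from 0.43 to 0.53 on the log2 scale, Ccnd3 from 0.21 to 0.36 and Cdkn2d from 0.19 to 0.33, with a positive value in each of the 6 fits. Ccnd2 ran from -0.39 to -0.14 and Cdkn1a from -0.62 to -0.07, negative in each. Cdkn2c ran from -0.39 to 0.32 and had either sign. None of the 10 genes passed an adjusted p under 0.05 in any of these 6 fits.

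**Figure D4:**
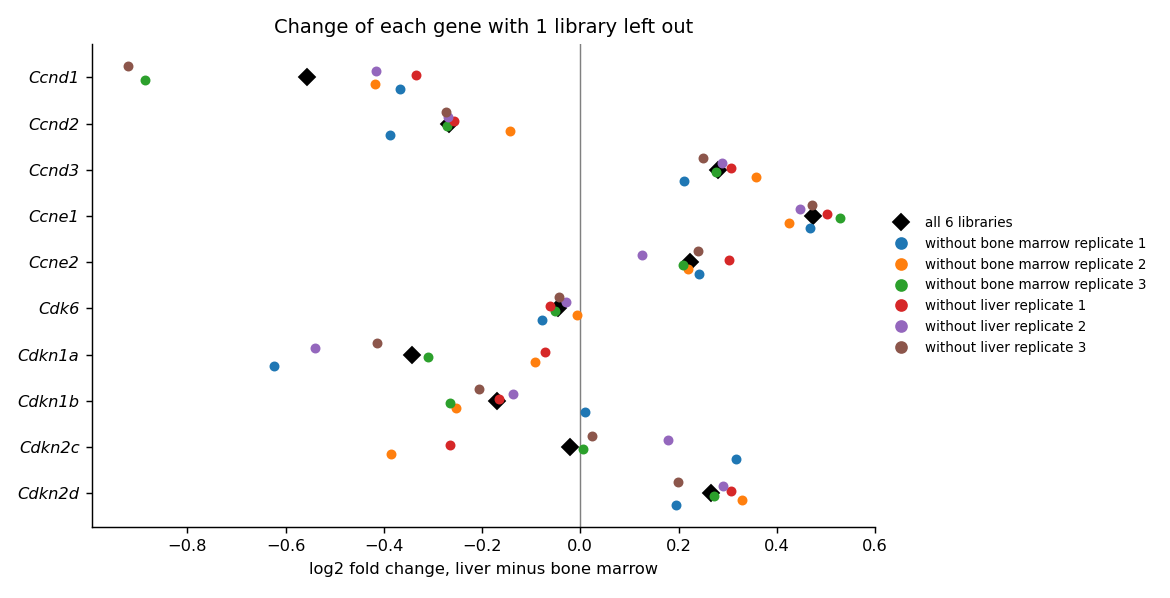
Log2 fold change, liver minus bone marrow (horizontal axis), of each gene with all 6 libraries (black diamonds) and with 1 library left out (coloured points). Ccne1 stays between 0.43 and 0.53, while the points of Cdkn2c lie on both sides of 0.

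The other genes of the pathway were taken from lists, to set the 10 beside the proteins they act with. Of 17 genes of the retinoblastoma and E2F families, all tested, 1 passed higher in liver and 0 lower, beside 0.42% and 0.594% of all genes. The 1 was E2f2, an activating E2F gene, which rose from 171, 147 and 153 normalized counts in bone marrow replicates 1, 2 and 3 to 281, 307 and 285 in liver. The tissues did not overlap, and the log2 fold change was 0.89 with a 95% interval of 0.59 to 1.18 (adjusted p = 0.035). This call was lost without bone marrow replicates 1, 2 and 3 (adjusted p = 0.11, 0.13 and 0.22) and without liver replicates 2 and 3 (0.066 and 0.19), the log2 fold change staying between 0.84 and 0.95. Without both replicate 3 libraries the adjusted p was 0.87. On the recovered reads of all 6 libraries, edgeR and DESeq2 also called E2f2 (adjusted p = 0.034 and 3.5e-05). The activator gene E2f1 had 0.23 (adjusted p = 0.31) and the dimer partner gene Tfdp1 0.13 (adjusted p = 0.33). Rbl2, a pocket protein gene of the retinoblastoma family known from resting cells, had -0.31 (adjusted p = 0.090), with 1588 to 1618 normalized counts in the bone marrow libraries and 1203 to 1369 in those from liver. In this list 13 of 17 fold changes were positive, with a median of 0.11, beside 6924 of the 14298 genes tested and a median of -0.01.

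Of the later cyclins, which act in S phase and mitosis, 4 of 5 were tested and 0 passed. At an unadjusted limma p under 0.05 there were 3 of these 4, against 15.7% of all genes. The retinoblastoma and E2F list had 3 of 17, the kinases and activators 2 of 12, the turnover genes 4 of 16 and the other inhibitors 0 of 3. Of the 4 later cyclins 3 lay higher in every liver library, as did 11.4% of all genes. Ccna2 had a log2 fold change of 0.31 (adjusted p = 0.070), with 2500 to 2511 normalized counts in the bone marrow libraries and 2947 to 3326 in those from liver, and Ccnb1 had 0.35 (0.11). Ccnb2 had 0.14 and Ccnf -0.12, and Ccna1 had 0 reads in all 6 libraries. Of 13 kinases and their activators 12 were tested and 0 passed. Their median was 0.07, with Cdk1, the mitotic kinase, at 0.45 (adjusted p = 0.099) and Cdk2, the partner of the E cyclins, at 0.30 (adjusted p = 0.30). Cdc25a, a phosphatase gene that activates CDK2, had 0.28, and Pkmyt1, an inhibitory kinase gene, had 0.12. Of the 16 genes of cyclin and inhibitor turnover 0 passed, with a median of 0.06. Rbx1, a subunit of the ubiquitin ligases that degrade cyclin E and p27, had 0.26 (adjusted p = 0.068), Cks2 0.27, Cks1b, a cofactor for the degradation of p27, 0.26, and Fbxo4 -0.45. Of the other inhibitors, 3 of 4 were tested and 0 passed: Cdkn3 had 0.27, Cdkn2b -0.53 and Cdkn2a -0.24, the last with 28.7 to 129 normalized counts in the bone marrow libraries and 41.5 to 99.5 in those from liver. Cdkn1c was below the filter, with 23 reads in bone marrow and 26 in liver. With 1 library left out, several of these values moved by more than 1.5 times: Cdkn2b ran from -0.70 to -0.26 (the latter without bone marrow replicate 2), Cdkn2a from -0.89 to 0.18, Cdc25a from 0.13 to 0.36, Pkmyt1 from 0.07 to 0.19, Cdk2 from 0.20 to 0.41, Cks1b from 0.17 to 0.36, Fbxo4 from -0.56 to -0.27 and Ccnf from -0.26 to 0.05. Besides E2f2, DESeq2 on the recovered reads called Ccna2, Ccnb1, Cdk1, Rbx1 and Rbl2 of these genes in the same directions. DESeq2 called 622 of all 14298 genes tested, where limma called 145. With edgeR, which called 135, Ccna2, Ccnb1, Cdk1, Rbx1 and Rbl2 did not pass (adjusted p of 0.069 to 0.0995).

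**Figure D5:**
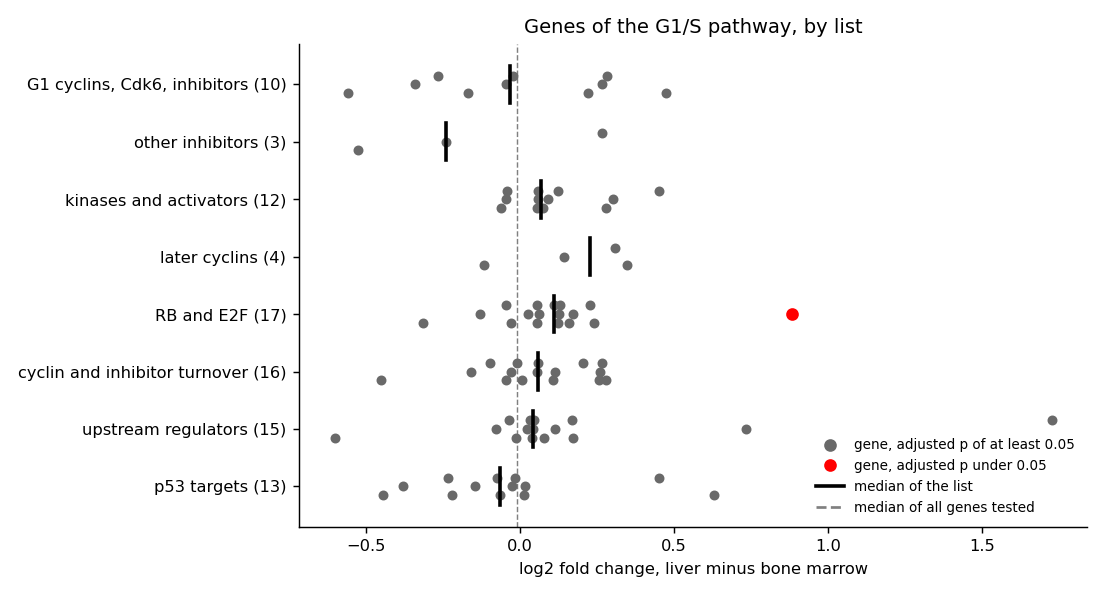
Log2 fold change, liver minus bone marrow (horizontal axis), of every tested gene of each list, with the number tested in parentheses, list medians as black bars and the median of all genes as a dashed line. E2f2 (0.89, red) is the 1 gene of these lists at an adjusted p under 0.05.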

How the data were processed

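RNA sequencing was done on 3 bone marrow and 3 liver libraries of mouse leukemia stem cells. The deposited values are a signal, namely normalized counts from DESeq2 with a single size factor for each library, as the table's name and the submitters' processing notes say. Those notes name STAR 2.6.0c, Trimmomatic 0.36, bcl2fastq 2.19.0, R 3.4.1 and DESeq2 1.16.1, without roles. Which build, annotation and read counter were used is not given in the sources used here. Within a tolerance of 0.01, 100% of values were whole multiples of the smallest value in their library, so whole reads were recovered. Run on those reads, the count tests called 135 genes (edgeR) and 622 (DESeq2).

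For the 14298 genes averaging 10 normalized counts or more, limma 3.58.1 (R 4.3.3) was run on log2(value + 1). The model held tissue alone and moderated variances along their trend, and two-sided p-values were adjusted by Benjamini-Hochberg over all of these genes. Fold changes on the log2(value + 1) scale understate the change of low genes. An adjusted p under 0.05 counted as passing. The fit was tested on simulated data. Exon lengths and positions are those of GENCODE M21 (GRCm38), matched by symbol for 10 of 10 genes, an annotation that may differ from the one used for counting. Besides Ccnd1 and Ccne2, exon bases are shared with genes on the other strand for Ccnd2 (7.86%), Cdkn1a (7.68%), Ccnd3 (4.11%) and Cdk6 (2.63%). Ccnd3 also has an annotated pseudogene, Ccnd3-ps, and its part in the counts was not tested. The members and gene lists were chosen with earlier results of these data known. All 10 members are named, and of each other list the 4 genes with the smallest p and any that passed. Cdk4, Cdkn1c, Ccna1, Gadd45a, Phlda3, Zmat3 and Bax were named outside that rule after their values were seen. Alternatives were other pseudocounts, filters and scalings, edgeR 4.0.16 and DESeq2 1.42.0, robust moderation, the replicate number as a term, and fewer libraries. Figures were drawn with matplotlib 3.10.9.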

Additional observations from a re-analysis of the deposited data

How the results depend on the processing

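With all libraries 145 genes passed and 0 of the 10 members. Pseudocounts of 0.5 and 10, other filters, TMM factors, quantile normalization, edgeR and robust moderation gave 122 to 159 genes and 0 members, and DESeq2 gave 622 genes and 0 members. Leaving out 1 library gave 6 (without bone marrow replicate 3) to 427 (without liver replicate 1) genes and 0 members, and leaving out both replicate 3 libraries 2 genes and 0 members. The scalings moved the median of all genes by -0.01 and 0.02 on the log2 scale. With the replicate number as a block, 525 genes passed and 1 member, Cdkn1a (log2 fold change -0.34, adjusted p = 0.032), and with that block and without both replicate 3 libraries 15 genes and 0 members. Deviations from the tissue mean correlated at 0.443, 0.399 and 0.0578 across genes for libraries numbered 1, 2 and 3. Liver replicate 3 correlated best with bone marrow replicate 2 (0.151). Bone marrow replicate 3 correlated best with liver replicate 3 (0.0578, beside -0.0416 and 0.00874 with liver replicates 1 and 2). With so low a correlation for replicate 3, the numbers were not taken to pair the samples. Cdkn1a is therefore not counted as passing. Xist did go with the numbers in bone marrow and liver, at 4860 and 6229 (replicate 1), 4.28 and 1.42 (replicate 2) and 2486 and 2425 (replicate 3). Whether the libraries pair was not settled. The sign reversed for Cdkn1b (-0.27 to 0.010 with 1 library left out), for Cdkn2c (-0.39 to 0.32 with 1 library left out, and 0.050 without both replicate 3 libraries, with the block too), for Cdkn2a (-0.89 to 0.18, and 0.070 likewise) and for Ccnf (-0.26 to 0.053 with 1 library left out). The cause was not tested. With the longest transcript as the length, Ccnd3 made up 63.6% and 71.9% of the D cyclins in bone marrow and liver. The share with 1 library left out was 52.5% to 54.1% and 62.2% to 62.8%. Depth limits Ccnd1 most, with 11 to 42 reads a library.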

Other observations

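Genes that respond to p53 were set beside Cdkn1a. Of 13 such genes, all tested, 0 passed (limma), 1 was at an unadjusted p under 0.05, against 15.7% of all genes tested, and the median log2 fold change was -0.06. Pmaip1, a pro-apoptotic BCL2-family gene, stood at 1255, 1277 and 1233 normalized counts in bone marrow replicates 1, 2 and 3 and at 1919, 1521 and 1729 in liver (0.45, adjusted p = 0.072). DESeq2 called Pmaip1 among 622 genes, and edgeR did not (adjusted p = 0.071). Btg2, an antiproliferative gene, stood at 2174, 1774 and 2018 in bone marrow and at 4846, 1898 and 3145 in liver, where replicate 1, the lowest library for Cdkn1a, was the highest. Gadd45a likewise had replicate 1 highest and replicate 2 lowest in both tissues. Phlda3, Zmat3, Bax and Sesn2 had the order of Cdkn1a in both tissues, with replicate 1 lowest and replicate 2 highest. The remaining genes of the list had neither order in both tissues, and the cause was not tested. Sesn2 had -0.22 and Bbc3 -0.23, running from -0.31 to -0.09 and from -0.34 to -0.11 with 1 library left out. Btg2 had 0.63 and ran from 0.30 to 0.98.

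Of 15 upstream regulators 0 passed, 2 were at an unadjusted p under 0.05, close to the 15.7% of all genes tested, and the median was 0.04. Foxo1, a transcription factor gene that growth signalling restrains, stood at 189, 215 and 222 normalized counts in bone marrow and at 143, 115 and 155 in liver, with no overlap (-0.60, adjusted p = 0.15). Cebpa, a transcription factor gene of granulocyte formation, stood at 26.0, 40.2 and 55.0 in bone marrow and at 61.3, 208 and 173 in liver (1.73, adjusted p = 0.16). DESeq2 called Cebpa among 622 genes, and edgeR did not (adjusted p = 0.13). The summed neutrophil markers were 177, 880 and 485 in the same liver libraries, and their part in the level of Cebpa was not tested. Foxo4 had 0.73 and Zbtb17 0.17, running from 0.37 to 1.00 and from 0.09 to 0.28 with 1 library left out.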
